A study of Mus musculus with 6 samples.

Results

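Macrophage and antigen presentation genes were examined in RNA-seq libraries of sorted muscle stromal cells, a population gated against the leukocyte antigen CD45. The 34 genes were chosen by symbol, with earlier results of these data known, so shares of all genes given beside their counts are no test. They were 24 markers of macrophages and other leukocytes, 7 genes of the MHC class II pathway and 3 genes of MHC class I, of 55536 gene models counted. Of the 34, 33 passed a filter on low counts, as did 15903 of all genes, and each of the 33 had at least 9 counts in every library.

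The comparison set 3 libraries of p16+ cells, positive for the tdTomato p16 reporter, against 3 libraries of p16- cells, negative for it. All 6 came from reporter mice on C57Bl/6 and were sorted as CD45-, CD31- and CD29+ stromal cells. Per the labels' protocols, quadriceps muscle was resected on both sides in animals 10 weeks of age, the defect was filled with 30 mg of polycaprolactone, with a decellularized extracellular matrix or with 50 uL of saline, and tissue was taken 1 or 6 weeks after surgery. Animals had carprofen, an analgesic, at 5 mg/kg. The series' design text calls the setting a model of foreign body fibrosis. The filler, the harvest time and the animal behind each library, and the construct that drives the reporter, are not given in the sources used here. P-values therefore measure only the spread between these libraries, which may be technical.

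Macrophages take up debris and particles, are the main leukocytes around an implanted material, and can fuse there into foreign body giant cells. They read the cytokine CSF1 through the receptor encoded by Csf1r, secrete the complement component C1q, and present peptides on MHC class II. Class II molecules are usually restricted to antigen presenting cells and are switched on by the coactivator CIITA, whereas MHC class I with its light chain beta-2 microglobulin is carried by nearly all nucleated cells and is driven by the related coactivator NLRC5.

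Total counts lay between 35253406 and 37861713 in p16+ and between 36507067 and 39103909 in p16- libraries. Values are given in CPM, counts relative to each library's total after scaling by TMM normalization factors, and 3 counts in a library were worth 0.0737 to 0.0876 CPM. A gene is said to have risen or fallen in p16+ where its adjusted p was under 0.05 (edgeR's quasi-likelihood test, Benjamini-Hochberg adjustment over all genes tested), and every adjusted p below is from this test. With library sizes alone in place of TMM factors, the share of calls that were higher in p16+ was 36.0%, against 52.0% with them. Cdkn2a, the p16 gene on which the reporter is based, had 6.91, 8.82 and 7.74 CPM in p16+ libraries, against 2.41, 1.77 and 2.20 CPM in p16- libraries. These values cover the whole gene model and do not tell its transcripts apart. Itgb1, the gene of CD29, for which the cells were sorted, had 869, 913 and 893 CPM in p16+ libraries, against 696, 787 and 790.0 CPM in p16- libraries. Its groups did not overlap, and it did not pass (log2 fold change 0.23, SE 0.079, adjusted p = 0.0543). It passed with no filter (adjusted p = 0.0434), with the stricter filter (0.0452), with DESeq2 (0.00708), limma-voom (0.0336) and the replicate block (0.0198), and without p16- replicate 2 (0.0469). The stromal identity was plain in both groups: the summed level of 10 stromal markers was 153216 to 160657 CPM in p16+ and 91358 to 108853 CPM in p16- libraries. Of the 10, 6 rose, 1 fell and 3 did not pass, beside 8.69% higher and 8.04% lower among all genes tested. Among the 3 was the fibroblast receptor gene Pdgfra, at 866 CPM on average in p16+ against 1018 CPM in p16- cells. Pdgfra was called lower with library sizes alone (adjusted p = 0.0248), no filter (0.0411) and the replicate block (0.0276), and without p16- replicate 1 (0.00378). On principal components the p16+ replicates 2 and 3 lay far apart along the second axis, at 38.2 and -46.7, with the 3 p16- libraries between -9.12 and 8.92.

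Macrophage genes were detected in a population sorted against CD45, most of them at low levels, and part of them rose in p16+ cells. Of the 24 macrophage and leukocyte genes, 8 rose, 0 fell, 15 did not pass and 1 was not tested, where 8.69% of all genes tested rose and 8.04% fell. The 8 were Csf1r, Lyz2, C1qa, C1qb, C1qc, Laptm5, Mrc1 and Ctss. The median log2 fold change over the 23 tested was 0.43, against -0.0081 over all genes tested, and 21 of the 23 had a fold change above 0, as did 48.9% of all genes. In 10 of the 23 every p16+ library was above every p16- library, a pattern that 16.6% of all genes tested showed.

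The summed level of the 24 genes was 414, 423 and 359 CPM in p16+ libraries, against 294, 256 and 293 CPM in p16- libraries, and 1.42 times as high on average in p16+. The groups did not overlap, and the lowest p16+ library was replicate 3. In that library 18 of the 23 tested genes had their lowest p16+ value, and 12 had their highest in replicate 2. Lyz2 was the largest part of the sum, at 168 CPM on average in p16+ and 124 CPM in p16- cells. A bulk level of this kind cannot tell more cells of a type from more RNA per cell.

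**Figure D1:**
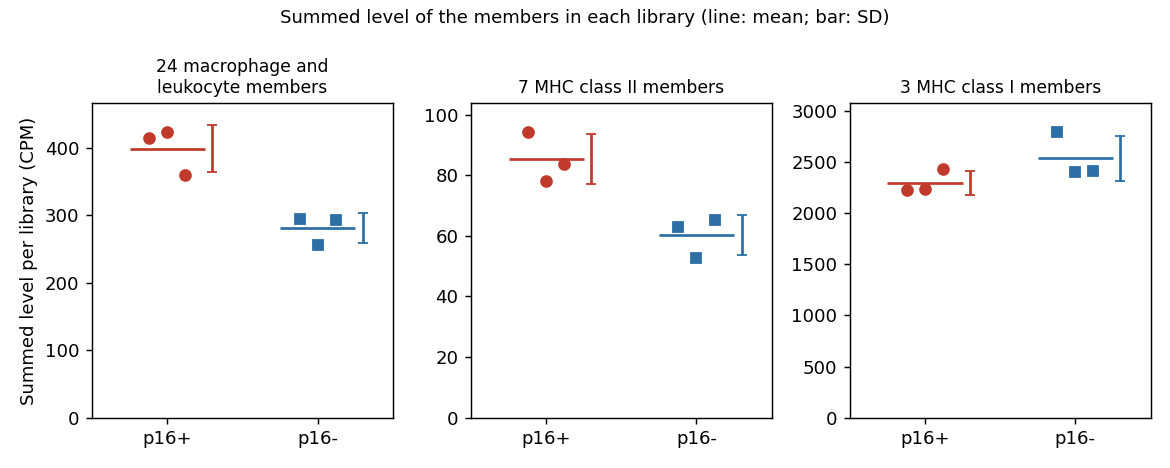
Summed level in CPM of the 24 macrophage and leukocyte genes, the 7 MHC class II genes and the 3 MHC class I genes in each of the 3 p16+ (red circles) and 3 p16- (blue squares) libraries, with the mean as a line and the SD as a bar. The macrophage sums lie at 359 to 423 CPM in p16+ and 256 to 294 CPM in p16-, the class II sums at 78.0 to 94.3 CPM in p16+ and 52.9 to 65.2 CPM in p16-, and the class I sums of the groups overlap.

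Among receptors, Csf1r (chromosome 18, 61100598 to 61132149, GRCm38), which encodes the receptor for CSF1 that macrophages need to survive, had 31.7, 28.1 and 24.9 CPM in p16+ libraries, against 10.4, 10.9 and 16.3 CPM in p16- libraries. Every p16+ library stood above every p16- library, by 2.26-fold on average (log2 fold change 1.17, SE 0.16, adjusted p = 7.32e-05), and this was the highest fold change of the 33 tested genes. Of its exonic length 15.1% is overlapped by Hmgxb3 on the opposite strand, a gene at 28.6 CPM on average in p16+ against 27.2 CPM in p16- cells (adjusted p = 0.675). Mrc1, the mannose receptor CD206 of tissue-resident and alternatively activated macrophages, had 10.1, 12.4 and 6.02 CPM in p16+ libraries, against 4.52, 5.30 and 4.81 CPM in p16- libraries. It rose (log2 fold change 0.96, SE 0.23, adjusted p = 0.00779), with p16+ replicate 3 close to the p16- range, and its call was lost without p16+ replicate 2 (adjusted p = 0.0671).

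The other 6 receptor genes did not pass. Adgre1, which encodes the macrophage antigen F4/80, had 5.25, 8.17 and 5.69 CPM in p16+ libraries, against 3.17, 5.42 and 4.09 CPM in p16- libraries, so that p16+ replicate 1 lay inside the p16- range (log2 fold change 0.59, SE 0.24, adjusted p = 0.118). It passed without p16- replicate 2 (adjusted p = 0.0486). The Fc gamma receptor gene Fcgr3 had 7.12 ± 1.37 CPM in p16+ cells, against 5.02 ± 0.272 CPM in p16- cells (SD, n = 3 each; adjusted p = 0.0985) and passed without p16+ replicate 3 (adjusted p = 0.0476). Of its 50-base sequence windows 9.58% also occur in another gene, all of them in its relative Fcgr2b, which encodes the inhibitory Fc receptor and had 9.80 CPM on average in p16+ against 11.2 CPM in p16- cells. Cd14, the lipopolysaccharide co-receptor, and Trem2, a lipid receptor of tissue macrophages, had log2 fold changes of 0.29 and 0.32 (adjusted p = 0.202 and 0.481). Cx3cr1, the fractalkine receptor of monocytes, and Cd163, the haemoglobin scavenger receptor, were rare. Cx3cr1 had 2.04, 1.58 and 1.08 CPM in p16+ libraries, against 1.38, 0.454 and 1.72 CPM in p16- libraries. Cd163 had 40, 41 and 13 counts in p16+ libraries, against 26, 31 and 48 counts in p16- libraries. Their groups overlapped, and their log2 fold changes had standard errors of 0.49 and 0.57, against 0.16 for Csf1r, so that small changes were not detectable at these counts.

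The 3 chains of C1q rose together. Their genes lie side by side on chromosome 4 (136880129 to 136898803, minus strand), and C1q, assembled from all 3 chains, starts the classical complement pathway and is made largely by macrophages. C1qa had 18.2, 19.6 and 12.5 CPM in p16+ libraries, against 10.9, 9.91 and 9.25 CPM in p16- libraries. C1qb had 20.8, 23.7 and 19.7 CPM in p16+ libraries, against 12.9, 14.7 and 14.2 CPM in p16- libraries. C1qc had 15.9, 15.9 and 11.0 CPM in p16+ libraries, against 7.99, 7.52 and 7.77 CPM in p16- libraries. For each chain the lowest p16+ library, replicate 3, was above the highest p16- library. The folds were 1.67 for C1qa (SE of the log2 fold change 0.16, adjusted p = 0.00448), 1.54 for C1qb (SE 0.12, adjusted p = 0.00186) and 1.84 for C1qc (SE 0.16, adjusted p = 0.00118), and no alternative setting or left-out library ended any of these calls.

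Of the lysosomal and phagocyte enzymes, Lyz2 and Ctss rose and Cd68 did not. Lyz2, the lysozyme gene of macrophages and neutrophils, had 167, 177 and 159.9 CPM in p16+ libraries, against 133, 110.4 and 129 CPM in p16- libraries (log2 fold change 0.43, SE 0.085, adjusted p = 0.00183). The groups did not overlap, and 15.4% of its sequence windows also occur in its relative Lyz1, at 6.71 CPM on average in p16+ against 4.58 CPM in p16- cells. Ctss encodes cathepsin S, the protease that trims the invariant chain of MHC class II, and had 39.1, 38.8 and 33.3 CPM in p16+ libraries, against 30.3, 22.6 and 31.2 CPM in p16- libraries. It rose by 1.32-fold (adjusted p = 0.0313), and its call was lost with library sizes alone (adjusted p = 0.0778) and when p16+ replicate 1 or 2 or p16- replicate 2 was left out (adjusted p = 0.112, 0.118 and 0.119). Cd68, the lysosomal membrane protein used as a general macrophage marker, had 17.7, 13.5 and 16.3 CPM in p16+ libraries, against 16.5, 15.5 and 14.6 CPM in p16- libraries. The groups overlapped, with log2 fold change 0.022, SE 0.13, adjusted p = 0.938.

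Of the 5 genes of leukocytes in general, Laptm5 rose. Laptm5, a lysosomal protein of blood cells that limits immune receptor signalling, had 10.6, 13.0 and 12.8 CPM in p16+ libraries, against 6.93, 5.95 and 7.04 CPM in p16- libraries, with no overlap (log2 fold change 0.87, SE 0.16, adjusted p = 0.000995). Ptprc, which encodes CD45 itself, the antigen the gate removed, had 355, 300 and 184 counts in p16+ libraries, against 187, 235 and 154 counts in p16- libraries. In CPM these were 9.77, 8.17 and 5.37 in p16+ libraries, against 4.60, 5.93 and 4.14 in p16- libraries, so that p16+ replicate 3 lay inside the p16- range (log2 fold change 0.67, SE 0.23, adjusted p = 0.0602). It passed without p16+ replicate 3 (adjusted p = 0.0172), without p16- replicate 2 (0.0371), without a filter (0.018), with a stricter filter (0.0487) and with the replicate block (0.0327). Cd53, a tetraspanin, Coro1a, an actin regulator, and Cd52, a small surface glycoprotein, did not pass. Cd53 had 5.78 CPM on average in p16+ against 4.24 CPM in p16- cells (adjusted p = 0.213). Coro1a had 4.61 CPM on average in p16+ against 3.44 CPM in p16- cells (adjusted p = 0.311). Cd52 had 2.99 CPM on average in p16+ against 2.55 CPM in p16- cells (adjusted p = 0.71). Of the exonic length of Cd52 14.5% is overlapped by Crybg2 on the opposite strand, which had 0 counts in every library.

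The adaptor genes and the lineage regulator did not pass. Tyrobp and Fcer1g encode the signalling adaptors DAP12 and the Fc receptor gamma chain, through which many myeloid receptors signal. Tyrobp had 7.20 CPM on average in p16+ against 5.67 CPM in p16- cells (adjusted p = 0.309). Fcer1g had 6.14 CPM on average in p16+ against 4.35 CPM in p16- cells (adjusted p = 0.218). Spi1 encodes PU.1, the transcription factor that specifies myeloid cells, and had 2.61, 2.72 and 1.64 CPM in p16+ libraries, against 2.97, 1.16 and 2.39 CPM in p16- libraries. Its groups overlapped (log2 fold change 0.10, SE 0.37, adjusted p = 0.904). Aif1, the gene of the macrophage protein IBA1, had 13 to 31 counts in p16+ and 15 to 43 counts in p16- libraries (adjusted p = 0.938). Itgb2l, an integrin beta 2-like gene, had 3, 0 and 0 counts in p16+ libraries, against 0, 0 and 10 counts in p16- libraries, and was not tested. Its relative Itgb2, the common beta chain of leukocyte integrins, had 18.6 CPM on average in p16+ against 14.8 CPM in p16- cells (adjusted p = 0.111).

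Levels can be compared between genes only per length, which the unit TPM provides, here over the exonic length of each gene model. On the TPM scale Lyz2 was the most abundant of the 24 genes, at 501 TPM in p16+ and 371 TPM in p16-. It was followed by Ctss at 107 TPM in p16+ and 81.1 TPM in p16-, and then by C1qb at 77.4 TPM in p16+ and 50.5 TPM in p16-. Of the receptor genes, Csf1r had 19.2 TPM in p16+ and 8.57 TPM in p16-. Ptprc stood near the bottom, at 1.67 TPM in p16+ and 1.05 TPM in p16-. For scale, the stromal gene Pdgfra had 339.8 TPM in p16+ and 401 TPM in p16-. The gene model of Ptprc sums 18313 exonic bases over all its transcripts, which lowers its TPM relative to compact genes.

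**Figure D2:**
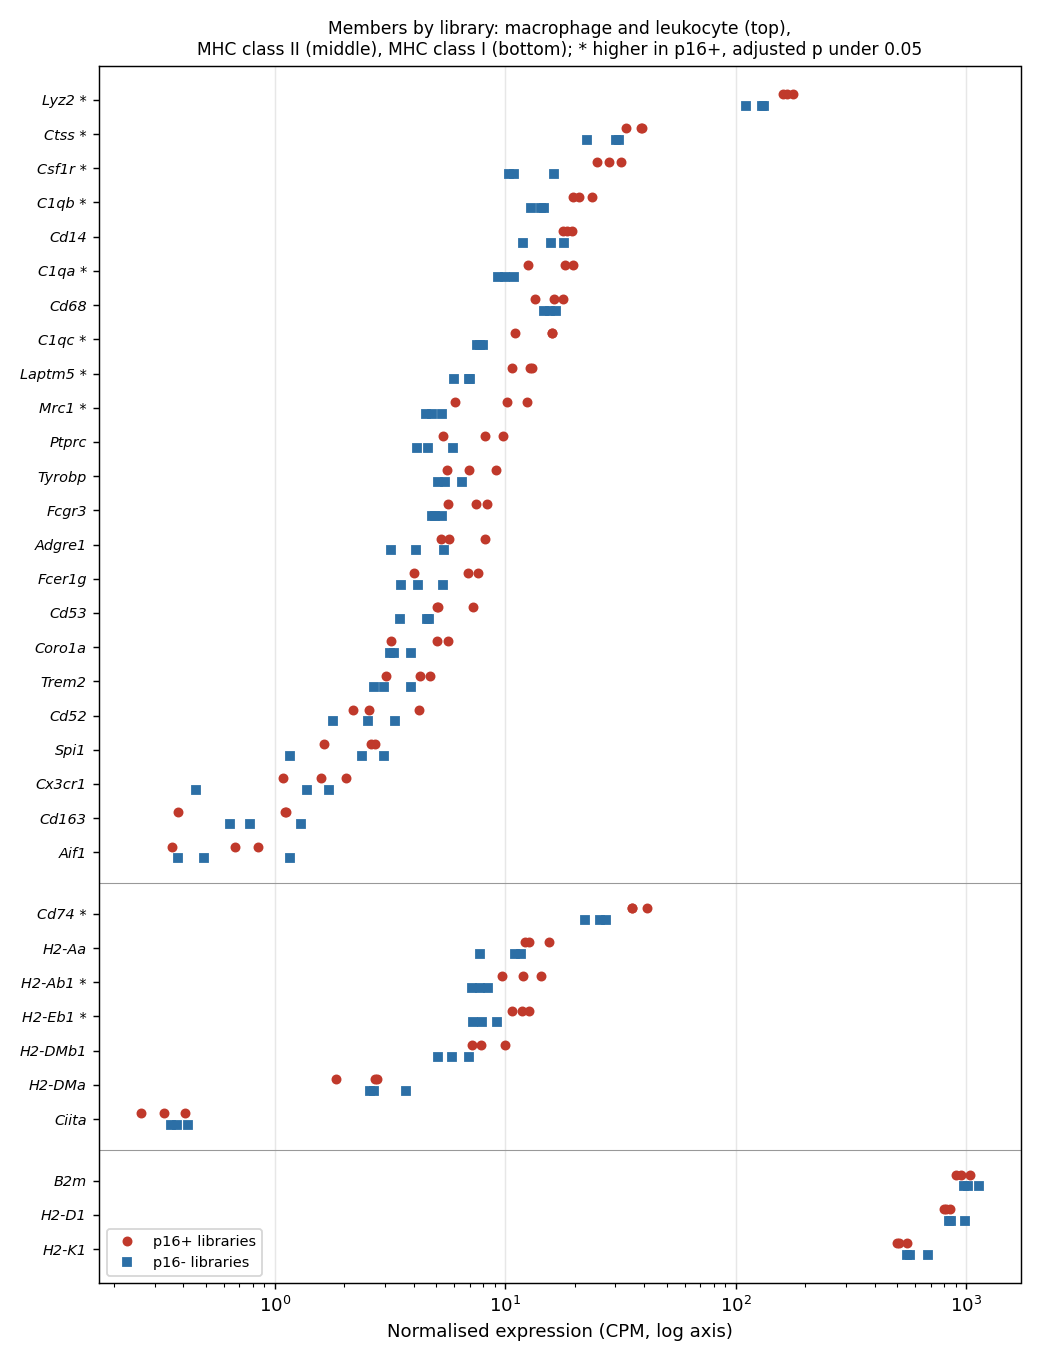
Expression in CPM (log axis) of the 33 tested genes in each of the 3 p16+ libraries (red circles, upper row of each gene) and 3 p16- libraries (blue squares, lower row), ordered by level within the macrophage and leukocyte, MHC class II and MHC class I groups. An asterisk marks the 11 genes that rose in p16+. Csf1r, the C1q chains, Laptm5 and Cd74 show a gap between the groups, while Cd68, Spi1, Cd163 and Aif1 overlap, and the MHC class I genes lie near 500 to 1130 CPM.

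The MHC class II genes were also expressed at low levels, and part of them rose in p16+ cells. Of the 7, 3 rose (Cd74, H2-Ab1 and H2-Eb1), 0 fell and 4 did not pass, where 8.69% of all genes tested rose and 8.04% fell. The median log2 fold change was 0.48. In 5 of the 7 every p16+ library was above every p16- library, against 16.6% of all genes. The summed level was 94.3, 78.0 and 83.6 CPM in p16+ libraries, against 63.0, 52.9 and 65.2 CPM in p16- libraries. On average it was 1.41 times as high in p16+, and as a share of the macrophage sum it was 0.184 to 0.233 in p16+ and 0.206 to 0.222 in p16- libraries, which overlap.

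Cd74 encodes the invariant chain, which chaperones class II molecules and fills their groove until peptide is loaded. It had 41.0, 35.2 and 35.2 CPM in p16+ libraries, against 25.7, 22.2 and 27.2 CPM in p16- libraries, with no overlap (log2 fold change 0.57, SE 0.11, adjusted p = 0.00129), and passed under every alternative and with any 1 library left out. H2-Ab1 and H2-Eb1, the beta chains of I-A and I-E, lie with H2-Aa in the MHC on chromosome 17 (34257689 to 34316674). H2-Ab1 had 14.2, 9.61 and 11.9 CPM in p16+ libraries, against 8.43, 7.74 and 7.15 CPM in p16- libraries (log2 fold change 0.62, SE 0.17, adjusted p = 0.0185). H2-Eb1 had 12.7, 10.7 and 11.8 CPM in p16+ libraries, against 7.92, 7.21 and 9.22 CPM in p16- libraries (log2 fold change 0.53, SE 0.15, adjusted p = 0.0266). Both calls were lost without p16+ replicate 1 (adjusted p = 0.109 for H2-Ab1 and 0.102 for H2-Eb1) and without p16+ replicate 3 (0.0578 and 0.0743). That of H2-Ab1 was also lost without p16- replicate 3 (0.0838), and that of H2-Eb1 without p16- replicate 1 (0.0601), without p16- replicate 2 (0.0961) and with library sizes alone (0.0542).

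H2-Aa, the I-A alpha chain, had 15.4, 12.2 and 12.6 CPM in p16+ libraries, against 11.0, 7.72 and 11.7 CPM in p16- libraries. Its groups did not overlap, yet it did not pass (log2 fold change 0.41, SE 0.17, adjusted p = 0.122). H2-DMb1, 1 chain of the DM molecule that exchanges the invariant chain fragment for peptide, had 7.84, 7.19 and 9.96 CPM in p16+ libraries, against 5.88, 5.09 and 6.93 CPM in p16- libraries (adjusted p = 0.103), and 22.7% of its sequence windows also occur in its relative H2-DMb2, which was near 0 at 0.124 CPM on average in p16+ against 0.0501 CPM in p16- cells. H2-DMa, the other chain of DM, had 2.78, 2.72 and 1.84 CPM in p16+ libraries, against 3.69, 2.57 and 2.69 CPM in p16- libraries. Its groups overlapped (log2 fold change -0.28, SE 0.30, adjusted p = 0.595), and 10.4% of its exonic length is overlapped by Brd2 on the opposite strand, an abundant gene at 478 CPM on average in p16+ against 464 CPM in p16- cells. Ciita, the coactivator on which class II transcription depends, had 12, 15 and 9 counts in p16+ libraries, against 17, 14 and 14 counts in p16- libraries. The ranges overlapped (adjusted p = 0.901, SE of the log2 fold change 0.72), and at these counts a change of the size of Cd74 was not detectable.

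MHC class I was far more abundant, and none of its 3 genes passed. B2m, the light chain common to class I molecules, had 897, 943 and 1037 CPM in p16+ libraries, against 1130.0, 1012 and 979 CPM in p16- libraries (log2 fold change -0.12, SE 0.085, adjusted p = 0.414). H2-D1 (chromosome 17, 35262730 to 35267499), a classical heavy chain, had 815, 798 and 849 CPM in p16+ libraries, against 986, 840.0 and 861 CPM in p16- libraries (log2 fold change -0.13, SE 0.082, adjusted p = 0.353). H2-K1 (chromosome 17, 33996017 to 34000347), the other classical heavy chain of this strain, had 511, 501 and 550.3 CPM in p16+ libraries, against 679.8, 554 and 569 CPM in p16- libraries. For B2m and H2-D1 the groups overlapped, while every p16+ library of H2-K1 was below every p16- library, a pattern that 16.5% of all genes showed, and the gene did not pass (log2 fold change -0.21, SE 0.089, adjusted p = 0.137). With library sizes alone it was called lower (adjusted p = 0.0422). On the TPM scale B2m had 4388 TPM in p16+ and 4754 TPM in p16-. H2-D1 had 1251 TPM in p16+ and 1364 TPM in p16-, and H2-K1 had 697 TPM in p16+ and 803 TPM in p16-. Cd74, the most abundant class II gene on this scale, had 87.0 TPM in p16+ and 58.6 TPM in p16-. The heavy chains are alike in sequence: 9.63% of the windows of H2-K1 and 12.8% of those of H2-D1 also occur in other genes, most often in H2-Q10 for H2-K1 and in H2-Q1 for H2-D1, and fragments that could not be placed uniquely were not counted.

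**Figure D3:**
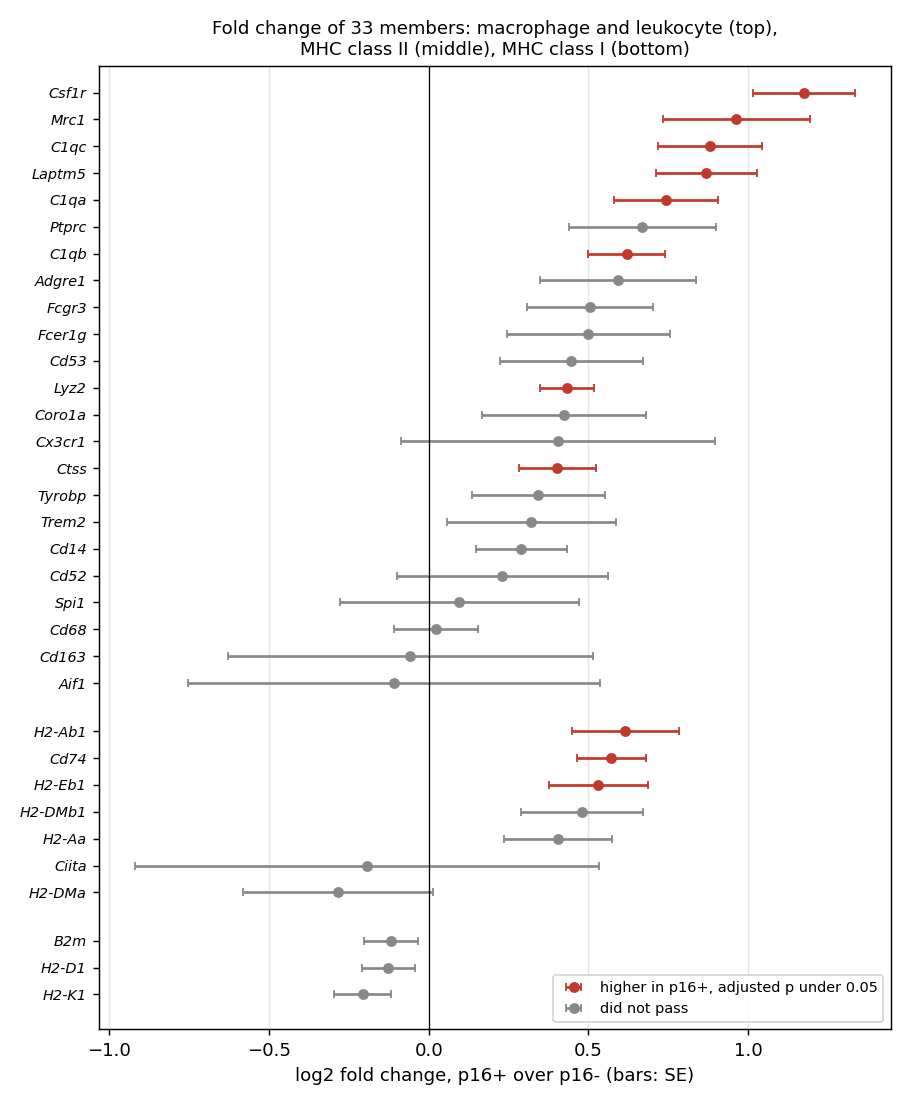
Log2 fold change, p16+ over p16-, of the 33 tested genes with its standard error as a bar, in red for genes that rose in p16+ and grey for genes that did not pass. Csf1r leads the macrophage group at 1.17, Cd74, H2-Ab1 and H2-Eb1 are the coloured genes of class II, and the 3 class I genes lie between -0.21 and -0.12 in grey.

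The promoters of both MHC classes are known for a common module, in which the RFX complex binds the X1 box, CREB family factors the X2 box and NF-Y the Y box, and on which CIITA or NLRC5 is recruited. The 180 bases before the RefSeq start (GRCm38.p6) of 3 class II and 3 class I genes are shown. They were chosen because the classes differed in level while both are known for this module. Of the patterns searched, only ATTGG was matched in all of the promoters shown. Capitals mark matches, on either strand, to TGACG (the core of the X2 box), ATTGG (the core of the Y box), an X1 box pattern, an interferon response element core and a kappaB pattern. H2-Aa is from chr17:34287824-34288003 (minus strand), H2-Eb1 from chr17:34305687-34305866 (plus), H2-DMb1 from chr17:34153011-34153190 (plus), H2-K1 from chr17:34000348-34000527 (minus), H2-D1 from chr17:35262914-35263093 (plus) and B2m from chr2:122147507-122147686 (plus).
H2-Aa: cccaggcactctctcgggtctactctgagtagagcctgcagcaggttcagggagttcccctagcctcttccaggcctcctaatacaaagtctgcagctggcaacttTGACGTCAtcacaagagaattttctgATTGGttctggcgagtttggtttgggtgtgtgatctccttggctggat
H2-Eb1: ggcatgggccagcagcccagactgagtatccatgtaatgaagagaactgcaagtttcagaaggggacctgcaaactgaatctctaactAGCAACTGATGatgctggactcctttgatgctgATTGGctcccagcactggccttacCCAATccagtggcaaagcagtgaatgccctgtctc
H2-DMb1: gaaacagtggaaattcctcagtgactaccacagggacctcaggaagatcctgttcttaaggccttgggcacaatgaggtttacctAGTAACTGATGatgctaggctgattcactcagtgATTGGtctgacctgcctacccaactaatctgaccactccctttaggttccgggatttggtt
H2-K1: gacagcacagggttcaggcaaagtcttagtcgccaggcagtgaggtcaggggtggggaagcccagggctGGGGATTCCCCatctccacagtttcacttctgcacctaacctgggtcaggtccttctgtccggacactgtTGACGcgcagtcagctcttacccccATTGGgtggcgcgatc
H2-D1: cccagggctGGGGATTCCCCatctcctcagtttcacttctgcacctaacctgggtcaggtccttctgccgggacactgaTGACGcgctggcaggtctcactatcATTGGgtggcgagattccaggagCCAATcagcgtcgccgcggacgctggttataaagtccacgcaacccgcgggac
B2m: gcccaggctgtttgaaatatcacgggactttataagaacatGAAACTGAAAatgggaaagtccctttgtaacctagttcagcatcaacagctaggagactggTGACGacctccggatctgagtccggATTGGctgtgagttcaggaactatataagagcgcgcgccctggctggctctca
In H2-K1, H2-D1 and B2m the X2 core began 25 bases before the Y core, and in H2-Aa 26 bases before it. In H2-Eb1 and H2-DMb1 the X1 pattern began 33 and 34 bases before the Y core. A TGACG followed at 25 or 26 bases by ATTGG on the same strand was found in 5 of the 29 promoter windows on hand for the 34 genes. Among 32851 promoter windows of the same 300 bases, 0.164% held it. The 5 windows belong to H2-Aa, H2-K1, H2-D1 and B2m, the genes whose sequences set this spacing, so their count is no test. The ATTGG core alone was in 37.4% of all windows, TGACG in 20.8%, the X1 pattern in 0.298%, the interferon core in 3.44% and the kappaB pattern in 0.0304%. Of the 5 class II windows, 4 held ATTGG, 1 TGACG and 2 the X1 pattern. Of the 4 class I windows, 4 held ATTGG, 4 TGACG and 0 the X1 pattern. Cd74 and H2-Ab1, class II genes that rose, are not among those shown. H2-K1 and H2-D1 held the kappaB pattern, and B2m the interferon core in the form searched. Other forms of an interferon response element were not searched for in any of these promoters. In H2-Aa the TGACG cores of both strands overlap as TGACGTCA. RefSeq entries matched 24 of the 34 genes. These patterns and the spacing were set after the sequences were seen, and a match is a run of letters, not a measured site.

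Nlrc5 and Irf1, regulators of class I, fell in p16+ cells. Nlrc5, the class I coactivator, had 7.37, 6.97 and 8.18 CPM in p16+ libraries, against 13.2, 13.5 and 11.7 CPM in p16- libraries, with no overlap (log2 fold change -0.77, SE 0.15, adjusted p = 0.00159). Irf1, the interferon-induced factor that activates class I promoters, had 329, 314 and 364 CPM in p16+ libraries, against 670.5, 473 and 571 CPM in p16- libraries, with no overlap (log2 fold change -0.77, SE 0.11, adjusted p = 0.000109). Neither call ended under any alternative or left-out library. Of 22 other genes of the class I pathway, 3 rose, 6 fell and 13 did not pass, beside 8.69% higher and 8.04% lower among all genes tested. Their median log2 fold change was -0.17. With 1 library left out the number that rose was 1 to 4 and the number that fell 3 to 6, and 2 rose and 8 fell where only library sizes were used.

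Of 6 nonclassical heavy chain genes within the 22, H2-Q6, H2-M3 and H2-Q4 fell, and H2-Q7, H2-T22 and H2-T23 did not pass. These 6 were not a list of their own, and 8.04% of all genes tested fell. H2-T23 was called higher without p16- replicate 1 (log2 fold change 0.30, adjusted p = 0.0052). H2-Q6 had 15.3 ± 3.32 CPM in p16+ cells, against 23.4 ± 4.11 CPM in p16- cells (SD, n = 3 each; adjusted p = 0.0156). H2-M3 had 20.6 ± 2.00 CPM in p16+ cells, against 27.8 ± 1.81 CPM in p16- cells (adjusted p = 0.0121). H2-Q4 had 99.9 ± 6.36 CPM in p16+ cells, against 129 ± 20.9 CPM in p16- cells (adjusted p = 0.0171). H2-M3 presents formylated peptides, and the H2-Q genes are near-identical in sequence, so that counts of single H2-Q genes are uncertain. The call of H2-Q6 was lost when replicate 1 of p16+ or of p16- was left out (adjusted p = 0.0696 and 0.0705). That of H2-M3 was lost without p16+ replicate 2 or p16- replicate 3 (0.0679 and 0.0591), and that of H2-Q4 without p16+ replicate 1 or p16+ replicate 2 (0.0612 and 0.0921). Psme1, an activator subunit of the proteasome, fell by 0.29 on the log2 scale (adjusted p = 0.0242), a call lost without p16+ replicate 1 or 2 or p16- replicate 1 or 3 (adjusted p = 0.0607, 0.121, 0.0674 and 0.0884). The genes that rose, Calr, Tapbp and Pdia3, encode the endoplasmic reticulum chaperones calreticulin, tapasin and ERp57 of the peptide loading complex, and calreticulin and ERp57 serve other glycoproteins too. Calr had 914 ± 20.8 CPM in p16+ cells, against 741 ± 23.6 CPM in p16- cells (SD, n = 3 each; adjusted p = 0.00899). Of the exonic length of Tapbp 29.0% is overlapped by other genes, among them Zbtb22 on the same strand. The call of Tapbp was lost without p16+ replicate 2 or 3 or p16- replicate 3 (adjusted p = 0.0504, 0.0566 and 0.0609). That of Pdia3 was lost with library sizes alone (0.119), without any 1 p16+ replicate (0.0511, 0.134 and 0.116) and without p16- replicate 3 (0.0904). The peptide transporter genes Tap1 and Tap2 did not pass (adjusted p = 0.584 and 0.119), and Tap2 was called lower with library sizes alone (0.0369).

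Of 12 other genes of the class II pathway and of co-stimulation, 3 rose, 0 fell, 5 did not pass and 4 were at or near 0 and not tested. Among all genes tested 8.69% rose and 8.04% fell. Cd80, the B7-1 ligand through which presenting cells co-stimulate T cells, had 51.0, 58.3 and 52.9 CPM in p16+ libraries, against 18.5, 25.9 and 20.7 CPM in p16- libraries. Every p16+ library was above every p16- library, by 2.49-fold on average (log2 fold change 1.32, SE 0.12, adjusted p = 1.19e-06), and on the TPM scale Cd80 had 57.4 TPM in p16+ and 23.1 TPM in p16-, above Csf1r and Ptprc. Its partner in function Cd86, from the list of phagocyte genes, had 0.921 CPM on average in p16+ against 0.472 CPM in p16- cells (adjusted p = 0.421). Lgmn, which encodes the lysosomal protease legumain, had 215 ± 16.3 CPM in p16+ cells, against 143 ± 12.9 CPM in p16- cells (SD, n = 3 each; adjusted p = 0.000167). Ifi30, the lysosomal thiol reductase GILT, had 50.4 ± 2.36 CPM in p16+ cells, against 38.4 ± 2.32 CPM in p16- cells (adjusted p = 0.00404). Rfx5, Rfxap and Rfxank, the subunits of the RFX complex, had log2 fold changes of 0.023, -0.26 and -0.042, and did not pass (adjusted p = 0.947, 0.367 and 0.902). Of the exonic length of Rfx5 26.8%, and of that of Rfxank 33.8%, is overlapped by a gene on the opposite strand, where reads on both genes were not counted.

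**Figure D4:**
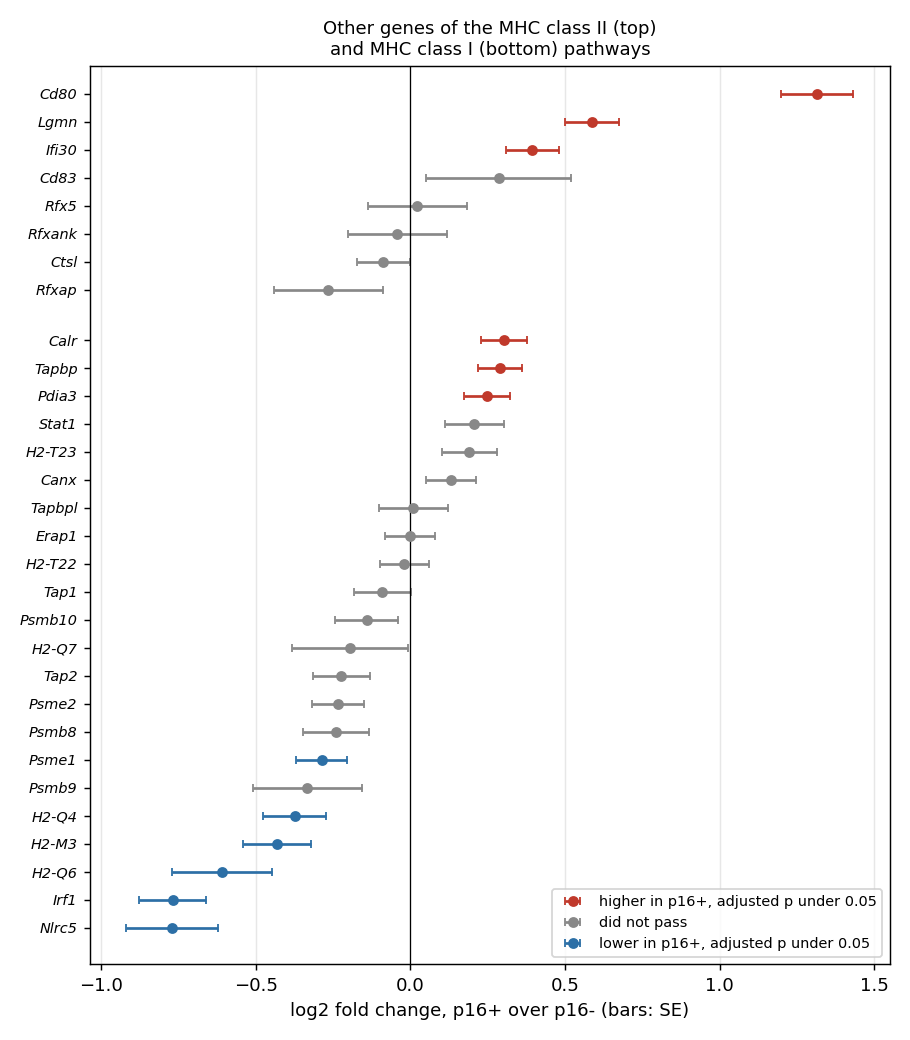
Log2 fold change, p16+ over p16-, with its standard error, of the 8 tested other genes of the MHC class II pathway and co-stimulation (top) and the 22 other genes of the class I pathway (bottom). Cd80 stands highest at 1.32, and Nlrc5 and Irf1 lowest at -0.77 each; red marks genes that rose, blue genes that fell and grey genes that did not pass.

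Of 32 further macrophage and phagocyte genes outside the 34, 6 rose (among them Mpeg1, Cybb, Pf4, Lyve1 and Gpnmb), 1 fell (Sirpa), 21 did not pass and 4 were not tested (8.69% of all genes tested rose and 8.04% fell), and the median log2 fold change was 0.54. With no filter on low counts 10 rose, and with 1 library left out 4 to 7 rose and 0 or 1 fell. Calls were lost for Pf4 when replicate 2 of p16+ or of p16- was left out (adjusted p = 0.0624 and 0.0533) and for Lyve1 without p16+ replicate 1 or 3 (0.0847 and 0.103). That of Gpnmb was lost with library sizes alone (0.0874) and when any 1 library other than p16+ replicate 2 or p16- replicate 1 was left out (0.0527 to 0.155). That of Sirpa was lost when any 1 library other than p16- replicate 1 was left out (0.0636 to 0.17). Mpeg1, the perforin-like gene of phagocytes, had 22.4 ± 0.883 CPM in p16+ cells, against 13.6 ± 2.18 CPM in p16- cells (adjusted p = 0.000904). Cybb, the NADPH oxidase subunit of phagocytes, had 21.5 ± 3.09 CPM in p16+ cells, against 13.5 ± 0.56 CPM in p16- cells (adjusted p = 0.00153). Of 20 further genes of leukocytes in general 1 rose, 18 did not pass and 1 was not tested. The 1 of 19 tested that rose is no larger a share than the 8.69% of all genes tested. The untested gene, Evi2b, was listed at 0 in every library, and 98.5% of its exonic length is overlapped by Evi2 on the same strand, where reads on both genes were not counted. The 1 that rose, Arhgdib, had 46.6, 45.0 and 45.0 CPM in p16+ libraries, against 30.8, 23.1 and 21.0 CPM in p16- libraries (adjusted p = 0.000105).

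Markers of other cell types were checked beside these results, and their part in the results was not tested. Of 11 endothelial markers, which the gate against CD31 would remove, 4 rose (Plvap, Emcn, Pecam1 and Vwf) and 1 fell (Tek). For comparison, 8.69% of all genes tested rose and 8.04% fell. Tek had 49.2 CPM on average in p16+ against 168 CPM in p16- cells. The summed level of the 11 was 93.1 to 122 CPM in p16+ and 190.5 to 224 CPM in p16- libraries, with Tek the most abundant. Pecam1, the CD31 gene, had 7.07, 5.01 and 8.12 CPM in p16+ libraries, against 2.56, 3.35 and 4.11 CPM in p16- libraries (adjusted p = 0.00871; 0.0621 without p16+ replicate 3), and the call of Vwf was lost without p16+ replicate 3 or p16- replicate 1 (0.151 and 0.0603). Of 7 osteoclast and giant cell markers 5 were tested and 2 rose. Acp5 had 85.6 ± 7.83 CPM in p16+ cells, against 32.4 ± 3.00 CPM in p16- cells (adjusted p = 1.59e-07). Atp6v0d2 had 11.0 ± 2.29 CPM in p16+ cells, against 5.65 ± 0.902 CPM in p16- cells (adjusted p = 0.00232). The fusion gene Dcstamp had 0.465 CPM on average in p16+ against 0.647 CPM in p16- cells (adjusted p = 0.778). The summed level of these 7 was 154 to 161 CPM in p16+ and 79.4 to 92.9 CPM in p16- libraries.

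Lymphocyte and mast cell markers were near 0 in both groups. Of 14 lymphocyte markers 11 were too low to test, Gzma and Klrb1c had 0 counts in every library, and the sum over the list was 1.46 to 2.54 CPM in p16+ and 1.48 to 2.53 CPM in p16- libraries. The T cell receptor component genes Cd3d, Cd3e and Cd3g were each below 0.04 CPM in both groups on average. The 7 mast cell markers summed to 1.85 to 4.26 CPM in p16+ and 2.40 to 3.74 CPM in p16- libraries, mostly from Kit, and 1 of them, Cma1, was at 0 throughout. Of 13 neutrophil markers 6 were tested and 2 rose, where 8.69% of all genes tested rose. The 2 were the matrix protease genes Mmp9 and Mmp8 (Mmp8 not without p16+ replicate 2, adjusted p = 0.0524). S100a8 had 2.11 CPM on average in p16+ against 2.14 CPM in p16- cells, S100a9 had 2.47 CPM on average in p16+ against 3.18 CPM in p16- cells, and Elane was at 0. Mpo, the myeloperoxidase gene, had 40, 24 and 18 counts in p16+ libraries, against 0, 12 and 0 counts in p16- libraries, with no overlap (adjusted p = 0.0846). It was called higher with no filter (adjusted p = 0.0276), DESeq2 (0.0476), limma-voom (0.0178) and the replicate block (0.043), and without p16- replicate 2 (0.0042). The list summed to 39.01 to 44.4 CPM in p16+ and 22.4 to 26.1 CPM in p16- libraries. On average most of this sum came from genes of the list other than S100a8, S100a9, Elane and Mpo. Of 9 dendritic cell markers Zbtb46, a transcription factor also found in endothelium, rose (13.6 ± 0.554 CPM in p16+ cells, against 8.02 ± 0.591 CPM in p16- cells; adjusted p = 0.00111), 3 did not pass and 5 were not tested, among them Flt3 and Xcr1 below 0.1 CPM. The list summed to 25.6 to 27.4 CPM in p16+ and 15.6 to 20.2 CPM in p16- libraries.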

How the data were processed

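Counts of fragments per gene were deposited for each of the 6 libraries. Per the file headers, the authors made them with featureCounts 1.6.0 on exons of GENCODE vM21, counting each read pair once, without using strand, and without the options that admit multiply mapped reads or reads on overlapping genes. Per the submitters' processing notes, bcl2fastq, STAR 2.7.3a and the build GRCm38.p6 were used, and per the labels' protocols sequencing was paired-end with 50 bases per end. All 55536 gene IDs and positions matched the vM21 annotation, which gave the symbols.

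From these counts, edgeR 4.0.16 in R 4.3.3 gave TMM factors, CPM and, after filterByExpr, the quasi-likelihood F test with robust estimation on 15903 genes, with the group alone in the model. The threshold was an adjusted p of 0.05. Standard errors are the absolute log2 fold change over the square root of F. TPM used the exonic length in the files. The exact two-sided permutation test of 3 against 3 libraries cannot give less than p = 0.1, and is not used. Overlap with other genes was taken from the exon positions in the files, and shared sequence from exact matches of 50-base windows among vM21 transcripts. Libraries of a group differed by more than sampling noise (chi-square per degree of freedom 11.8 to 40.5). The test was checked on simulated counts.

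The 34 genes and all lists were chosen with earlier results of these data known. Named genes are all 34, the sort genes, and in each other list up to 4 called genes with the smallest p or the most abundant. Against this rule, no called stromal gene was named, nor was the most abundant lymphocyte gene. Outside this rule, after their values were seen, Cd86, Itgb2, H2-Q6, H2-Q7, H2-M3, H2-T22, H2-T23, Tap1, Tap2, Rfx5, Rfxap, Rfxank, Psme1, Pdia3, H2-Q4, Tek, Dcstamp, Lyve1, Gpnmb, Sirpa, Pdgfra, Kit, Cd3d, Cd3e, Cd3g, S100a8, S100a9, Elane, Mpo, Flt3, Xcr1, genes at 0 and overlapping or similar genes were named. The values of 1 gene of the further macrophage list are not reported here. Alternatives were RLE and upper-quartile factors, library sizes alone, leaving out the filter, a stricter filter (3 or more libraries with a CPM of 1 or more), DESeq2 1.42.0, limma-voom 3.58.1, the replicate number as a block, and leaving out each library.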

Additional observations from a re-analysis of the deposited data

How the results depend on the processing

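The number of macrophage and leukocyte genes that rose was 8, and 6 to 10 with 1 library left out. It was 7 with library sizes alone, 9 without a filter, with the stricter filter and with the replicate block, and 8 with RLE or upper-quartile factors, DESeq2 and limma-voom. The number of MHC class II genes that rose was 3, and 1 to 3 with 1 library left out: 1 (Cd74) without p16+ replicate 1 and without p16+ replicate 3. It was 2 with library sizes alone and 3 in the other fits. No gene of these lists was called lower in any of these settings. Of the class I genes 0 were called in the main test by edgeR, DESeq2 and limma-voom, and 1, H2-K1, was called lower with library sizes alone. At an unadjusted p under 0.05, edgeR placed 1 of the 3, H2-K1, lower, and 0 of the macrophage, leukocyte or class II genes lower. Over all genes 1382 were higher and 1278 lower, and with 1 library left out 977 to 1333 were higher and 910 to 1234 lower. The labels do not say that a replicate number marks a shared animal. Deviations of same-numbered libraries correlated at 0.028, 0.082 and -0.0046, and p16+ replicates 1 and 3 each correlated best with another number. With the replicate block 3114 genes were called in place of 2660, 12 of the 33 genes in place of 11, the added one being Ptprc. Genes under about 1 CPM, such as Ciita, Aif1 and Cd163, are limited by depth, and intervals from counts would cover counting error only.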
